A study of Mus musculus with 12 samples.

Results

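A module of 48 genes of transforming growth factor beta (TGF-beta) and bone morphogenetic protein (BMP) signalling was followed in mouse pancreatic tumours. They were the rows of the deposited count files, 1 per library, whose Ensembl identifiers carry the symbols of a set list of ligands, receptors, SMAD proteins, latent binding proteins, antagonists and targets. All 48 were present among the 52636 genes of each file. All 48 also passed the filter on low counts that left 24065 genes for testing.

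The tumours were pancreatic ductal adenocarcinomas of KPC mice on a mixed C57BL/6 and 129 background. KPC mice are a genetically engineered model that develops pancreatic cancer, and every group shared this model. The sources used here do not give the alleles, the Cre driver, the ages or the sexes. The mice were wild-type (Cdh11+/+) or heterozygous (Cdh11+/-) for cadherin 11, which holds mesenchymal cells together, and were untreated or given gemcitabine, a nucleoside analogue used against pancreatic cancer. Each of the 4 groups held tumour tissue from 3 mice, 1 library each. The sources used here give neither dose nor schedule of gemcitabine. The questions the series asks are what loss of 1 copy of Cdh11 does to the tumour and to its response to gemcitabine.

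TGF-beta, activin and BMP ligands are secreted dimers that bring together type II and type I receptor kinases, and the type I kinase phosphorylates receptor-activated SMADs. These join Smad4 and act on transcription in the nucleus, while Smad6 and Smad7 oppose the receptors and Ski, Skil and Tgif1 act as nuclear co-repressors. TGF-beta is secreted in a latent complex tethered to the matrix by latent TGF-beta binding proteins, and BMPs are held by antagonists such as gremlin and noggin. In pancreatic cancer the pathway restrains the growth of early epithelial tumour cells and also drives matrix production by fibroblasts.

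Library totals lay between 39388328 and 56559413 expected counts. Levels are given as CPM, counts scaled to the library total after adjustment by the trimmed mean of M-values (TMM). Cdh11 itself was at 225, 283 and 165 CPM in untreated wild-type and 148, 115 and 73.7 CPM in untreated heterozygous samples. Gemcitabine-treated samples had 142, 62.2 and 123 CPM in the wild-type and 108.5, 141.5 and 72.0 CPM in the heterozygous group, which overlapped. The log2 fold change of Cdh11 between genotypes was -0.998 in untreated mice (edgeR adjusted p = 0.33) and -0.02 in treated mice (edgeR adjusted p = 0.996). From untreated to treated wild-type mice it was -1.04, without overlap (edgeR adjusted p = 0.56). A difference of like size thus arose within 1 genotype. The names of all groups below, treated and untreated, therefore rest on the labels alone. Xist exceeded the summed Y-linked genes in 2 untreated wild-type, 1 untreated heterozygous, 3 treated wild-type and 0 treated heterozygous samples, and genotype and sex cannot be told apart among treated mice. The labelled tissue showed its markers, with duct epithelial genes at a summed 3498 to 9463 CPM, beside acinar genes at 4.96 to 521.5 CPM.

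Upstream sequence is shown for 4 members on which the later comparisons turn. These are the co-receptor Eng, the TGF-beta receptor kinases Tgfbr1 and Tgfbr2, and the TGF-beta target Tgfbi. The sequences, from RefSeq (GRCm38.p6), read 5′ to 3′ on the gene's strand and, except for Tgfbi, end 1 base before the transcript start. Capitals mark the core SMAD-binding element (CAGAC or GTCTG) and the GC box (GGGCGG or CCGCCC), each searched on both strands. For Eng the window is chr2:32646345-32646594 on the plus strand, for Tgfbr1 chr4:47352972-47353221 on the plus strand, for Tgfbr2 chr9:116175364-116175613 on the minus strand, and for Tgfbi chr13:56609336-56609522 on the plus strand. The Tgfbi sequence stops earlier, because the GENCODE gene starts upstream of the RefSeq start and bases inside it are not printed.
Eng: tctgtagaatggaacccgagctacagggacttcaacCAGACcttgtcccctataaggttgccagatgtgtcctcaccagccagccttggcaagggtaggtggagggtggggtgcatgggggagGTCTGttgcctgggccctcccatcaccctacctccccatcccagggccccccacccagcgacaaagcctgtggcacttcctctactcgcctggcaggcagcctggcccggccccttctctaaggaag
Tgfbr1: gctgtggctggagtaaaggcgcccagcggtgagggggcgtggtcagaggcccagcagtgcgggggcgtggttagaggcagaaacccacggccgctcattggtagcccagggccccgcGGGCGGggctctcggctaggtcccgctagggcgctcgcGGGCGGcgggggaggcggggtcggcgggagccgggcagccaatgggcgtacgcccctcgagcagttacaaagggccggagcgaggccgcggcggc
Tgfbr2: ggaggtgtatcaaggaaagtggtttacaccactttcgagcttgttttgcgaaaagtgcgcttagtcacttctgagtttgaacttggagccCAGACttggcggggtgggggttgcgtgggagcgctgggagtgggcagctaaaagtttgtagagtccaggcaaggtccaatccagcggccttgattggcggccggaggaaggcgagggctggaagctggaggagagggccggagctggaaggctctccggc
Tgfbi: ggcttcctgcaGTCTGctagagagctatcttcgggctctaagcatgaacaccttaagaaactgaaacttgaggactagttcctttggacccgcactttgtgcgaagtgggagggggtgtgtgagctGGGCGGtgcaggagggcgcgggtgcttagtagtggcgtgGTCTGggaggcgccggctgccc

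Eng held 2 SMAD elements, 214 and 127 bases before the start, and no GC box. Tgfbr1 held the reverse, 2 GC boxes 133 and 95 bases before the start and no SMAD element. Tgfbr2 had 1 SMAD element at 160 bases, and Tgfbi had 2 at 239 and 85 bases with a GC box at 124 bases. No element overlapped another in these windows. The 4 promoters thus did not share 1 arrangement. Windows of 250 bases were matched for 34 of the 48 members: 15 of them (44.1%) held the SMAD element, against 42.2% of all 32851 promoter windows, and 25 (73.5%) held a GC box, against 32.7%. The TATAAA letters (TTTATA on the other strand) were in 3 members (8.82%) against 12.4% of windows, and GGCGCC in 9 (26.5%) against 9.59%. These are letter matches, not measured binding. The members' windows held 42.8% to 87.6% G or C, and the windows they were set against were not matched in GC content or gene type.

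Levels between genes were compared as CPM per kilobase of exon, averaged over the 12 samples. The length is that of all annotated exons of a gene merged, not of the transcripts expressed. A gene with long exons that are seldom used can therefore come out low, and ranks between genes are approximate. Fstl1, which encodes a secreted follistatin-like glycoprotein, was highest at 110.7 CPM per kilobase. The matrix-tethering protein Ltbp2 followed at 39.7, and all 4 latent binding proteins lay between 19.99 and 39.73 CPM per kilobase. Tgfbi, a secreted matrix protein induced by TGF-beta, was at 33.6. Among receptors Tgfbr1 (28.7) and Tgfbr2 (27.9) were the most abundant of their classes, and their co-receptor Eng was at 16.5. Tgfb3 was the most abundant TGF-beta ligand per length at 21.5, above Tgfb1 at 8.73 and Tgfb2 at 2.89. Smad3 (31.5) and Smad4 (28.9) exceeded Smad2 (5.496), and Ski (30.4) led the co-repressors. BMP ligands were low, from 0.0627 for Bmp5 to 4.77 for Bmp4, as were the antagonists, of which Grem1 was the highest at 6.75. In all, 27 members averaged above 10 and 5 below 1 CPM per kilobase, the latter being Bambi, Nog, Bmpr1b, Smad9 and Bmp5.

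**Figure D1:**
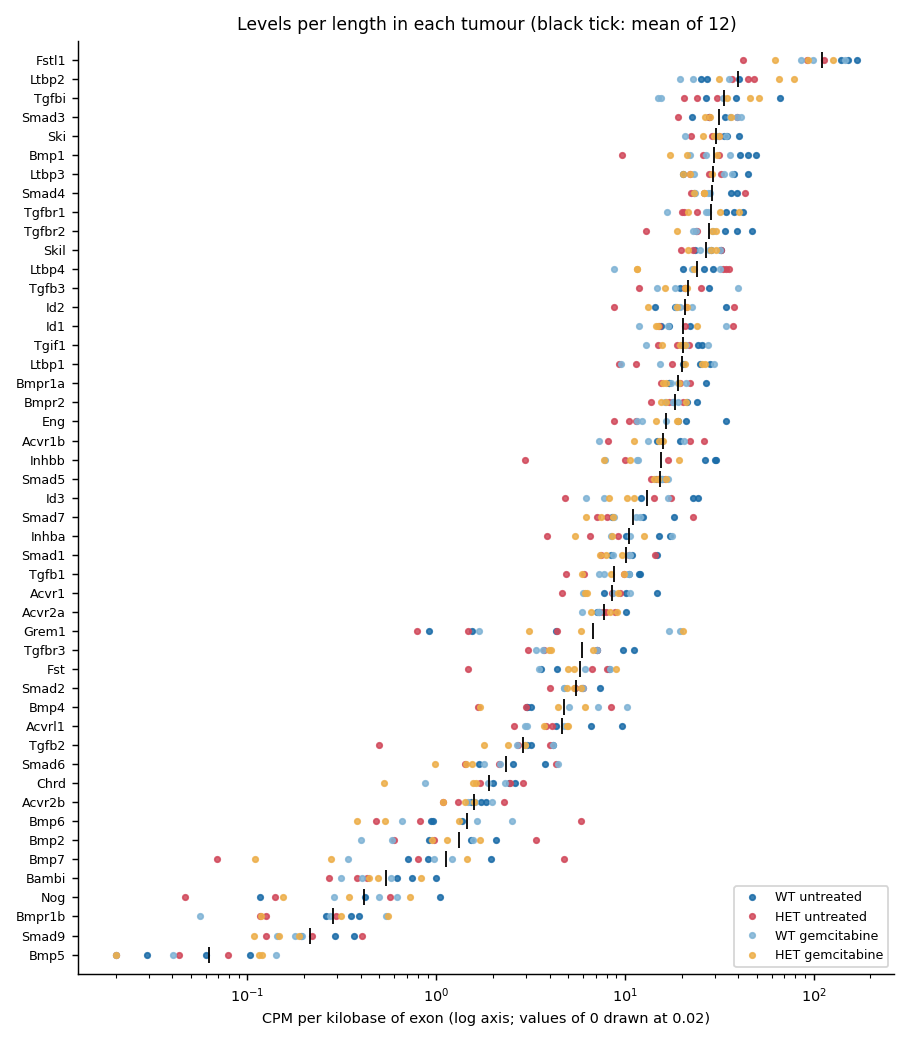
CPM per kilobase of exon (log axis) for the 48 members, ordered by the mean of 12 samples (black tick), with 1 point per sample coloured by group. Fstl1 is at the top and Bmp5 at the bottom, and the points of Grem1, Bmp7 and Inhbb are widely spread while those of Smad5 nearly coincide.

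In untreated mice, the TGF-beta receptors, Tgfb1, both activin subunits and Ltbp1 were lower in heterozygous than in wild-type tumours, without overlap for most of them, while BMP ligands and SMADs overlapped. No single member passed the threshold, a Benjamini-Hochberg adjusted p under 0.05 over all genes tested in edgeR's quasi-likelihood model, where 0.0166% of genes passed, 0.0125% as lower. Of the 48 members 38 had a log2 fold change below 0, against 46.3% of all genes, and 10 above 0, against 53.7%, and their median was -0.26, against 0.04 for all genes. At an unadjusted p under 0.05, 12 members were lower and 0 higher; over all genes 6.65% were lower and 5.51% higher. The groups did not overlap for 12 lower members and 1 higher member, against 8.41% and 7.36% of genes. In DESeq2, run as an alternative, Eng (adjusted p = 0.0014) and Tgfbr2 (adjusted p = 0.044) passed, where 2.73% of genes did. Leaving out untreated heterozygous sample 3 reduced the 12 lower members at an unadjusted p under 0.05 to 7 and the 38 members below 0 to 28, and leaving out untreated wild-type sample 1 reduced the 12 to 8.

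**Figure D2:**
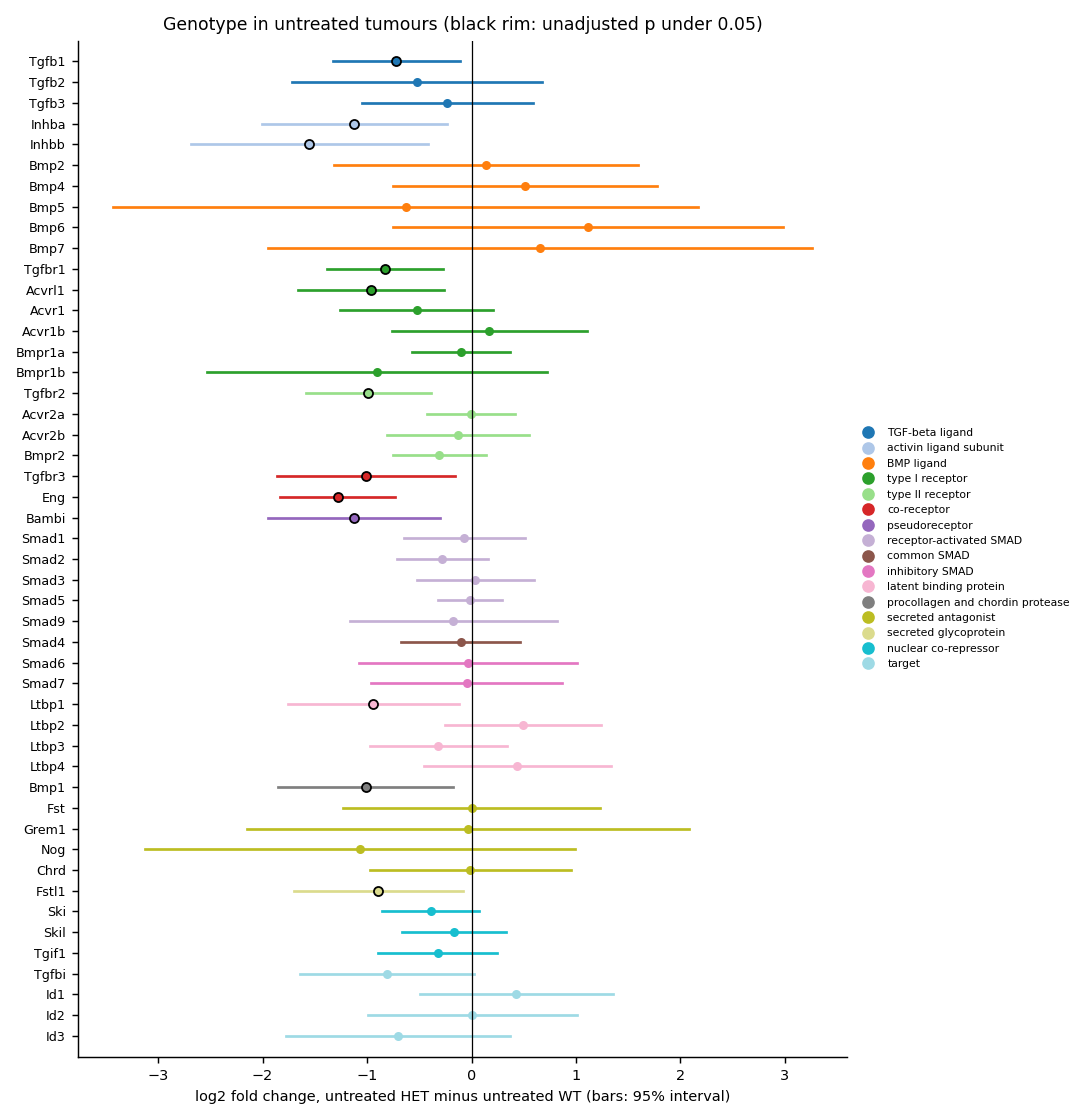
Log2 fold change of each member between untreated heterozygous and untreated wild-type samples (edgeR, n = 3 each), with its 95% interval, coloured by role; a black rim marks an unadjusted p under 0.05. The 12 rimmed members all lie below 0: Tgfb1, Inhba, Inhbb, Tgfbr1, Tgfbr2, Acvrl1, Tgfbr3, Eng, Bambi, Ltbp1, Bmp1 and Fstl1.

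The 4 members with the smallest p were Eng, Tgfbr2, Tgfbr1 and Acvrl1, all receptors or co-receptors. Eng encodes endoglin, a TGF-beta and BMP9 co-receptor of endothelial cells. It was at 84.96, 139.8 and 77.0 CPM in untreated wild-type samples and at 42.8, 46.3 and 35.2 CPM in untreated heterozygous samples. Every heterozygous value lay below every wild-type value, and the log2 fold change was -1.28 ± 0.25 (SE, edgeR adjusted p = 0.14). Tgfbr2, the type II receptor that first binds TGF-beta, was at 321, 388.5 and 276 CPM against 197, 194 and 106 CPM. Again the groups did not overlap, with heterozygous sample 3 the lowest, and the log2 fold change was -0.99 ± 0.27 (edgeR adjusted p = 0.23). Tgfbr1, the type I kinase that it activates, was at 278, 225 and 246.5 CPM against 157, 131 and 134 CPM, with no overlap. Its log2 fold change was -0.83 ± 0.25 (edgeR adjusted p = 0.26). Acvrl1, the type I receptor of endothelial cells that pairs with endoglin, was at 18.5, 41.0 and 28.1 CPM against 16.3, 17.5 and 11.1 CPM, which left wild-type sample 1 only just above heterozygous sample 2 (log2 fold change -0.96 ± 0.32, edgeR adjusted p = 0.28). Bambi, a decoy receptor without a kinase domain, was at 3.77, 5.05 and 3.16 CPM against 1.93, 2.18 and 1.37 CPM, again without overlap (log2 fold change -1.13 ± 0.37, edgeR adjusted p = 0.28).

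The other co-receptor, Tgfbr3 (betaglycan), had a log2 fold change of -1.01 ± 0.39 with touching groups. Apart from Acvrl1, the type I and type II receptors of BMPs and activins did not pass an unadjusted p of 0.05. Bmpr1a had a log2 fold change of -0.10 with a 95% interval of -0.57 to 0.36, and Bmpr2 -0.31 (-0.75 to 0.13), and the Acvr2a interval ran from -0.42 to 0.42. A difference of 2-fold or more lay outside these 3 intervals. It did not for the scarce Bmpr1b, at -0.90 (-2.53 to 0.73), for Acvr1, at -0.53 (-1.26 to 0.20), or for Acvr1b, at 0.17 (-0.76 to 1.10), and Acvr2b was at -0.13 (-0.81 to 0.55).

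Among ligands, the activin subunits stood lowest. Inhbb, whose product forms activin B, was at 113, 128 and 130.1 CPM in wild-type and 42.4, 71.6 and 12.6 CPM in heterozygous samples, a log2 fold change of -1.55 ± 0.51 (edgeR adjusted p = 0.28). Inhba, the activin A subunit, was at 97.1, 65.0 and 110.7 CPM against 41.7, 58.8 and 24.7 CPM (log2 fold change -1.12 ± 0.40, edgeR adjusted p = 0.31). Neither gene's groups overlapped, and heterozygous sample 3 was the lowest of the 12 samples for both. Tgfb1 was lower by a log2 fold change of -0.72 ± 0.28 without overlap, while Tgfb2 and Tgfb3 overlapped between the groups. Of the 5 BMP ligands 4 were higher on average, none at an unadjusted p under 0.05, and their intervals were wide, such as -0.75 to 2.98 for Bmp6. Untreated heterozygous sample 2 was the highest of all 12 samples for Bmp2, Bmp6 and Bmp7, with Bmp6 at 22.8 CPM against at most 9.79 CPM elsewhere. Bmp6 shares 5.74% of its exon bases with the far more abundant Txndc5 on the opposite strand, and whether strand was used in counting is stated in none of the sources used here, so its level is uncertain. The same holds for Acvr2a, which shares 7.84% of its exon bases with Orc4, and less so for Eng, which shares 1.51% with Fpgs.

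Extracellular handling of the ligands was mixed. Ltbp1, which anchors latent TGF-beta in the matrix, was at 269, 216 and 303 CPM in wild-type and 189, 122 and 99.6 CPM in heterozygous samples, without overlap (log2 fold change -0.94 ± 0.37, edgeR adjusted p = 0.35). Bmp1, a protease that matures procollagens and cleaves chordin, and Fstl1 were lower by log2 fold changes of -1.01 ± 0.38 and -0.89 ± 0.37, also without overlap. Ltbp4 was the 1 member whose heterozygous values all lay above the wild-type values, at 214, 222 and 229.7 CPM against 170.4, 188 and 132 CPM, although its log2 fold change of 0.44 ± 0.41 was small (edgeR adjusted p = 0.71). Ltbp3 and the antagonists Fst, Grem1, Nog and Chrd overlapped.

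The SMADs themselves had log2 fold changes near 0, some with wide intervals. Receptor-activated SMADs lay between -0.28 (Smad2) and 0.04 (Smad3), with the scarce Smad9 at -0.17 (95% interval -1.16 to 0.81). Smad4 was at -0.10 (-0.67 to 0.47). The inhibitory Smad6 and Smad7 were at -0.03 (-1.08 to 1.01) and -0.05 (-0.97 to 0.87). Smad5, a BMP-activated SMAD, varied least of all members, with a pooled SD within groups of 0.094 on the log2 scale, and its log2 fold change was -0.02 (-0.32 to 0.29). Of the targets, Tgfbi was lower by a log2 fold change of -0.81 ± 0.38 with overlapping groups, and the BMP targets Id1, Id2 and Id3 were at 0.43, 0.01 and -0.70. Ski did not overlap, with a log2 fold change of -0.39, and Skil and Tgif1 overlapped.

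**Figure D3:**
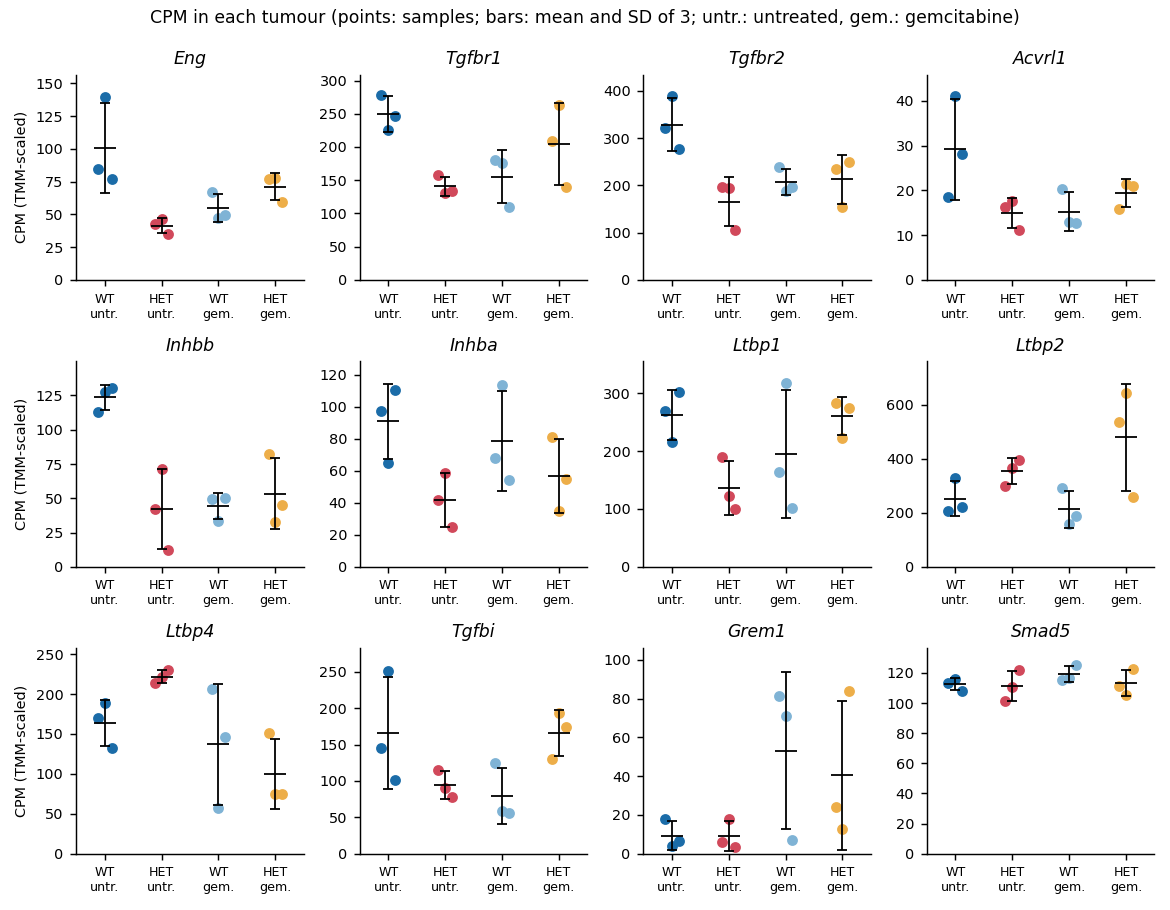
CPM of 12 members in every sample, with the mean and SD of each group (n = 3); each axis starts at 0. Eng, Tgfbr1 and Tgfbr2 have their highest mean in the untreated wild-type group, Ltbp2 has higher means in the heterozygous groups, Grem1 has a few high treated samples, and Smad5 lies between 102 and 125 CPM throughout.

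Markers of several cell types differed between the same groups. The 10 fibroblast markers summed to between 10920 and 17080 CPM in untreated wild-type and between 4103 and 6807 CPM in untreated heterozygous samples, and all 10 had a log2 fold change below 0 (median -1.58). The 9 myofibroblast and mural markers summed to 809 to 1169 CPM against 318 to 505 CPM, and all 9 were below 0. The 10 endothelial markers summed to 339.5 to 584 CPM against 227 to 347 CPM, and 9 of 10 were below 0. The 10 macrophage markers summed to 737 to 2362 CPM against 598.5 to 851 CPM, all 10 below 0. Of 12 acinar markers tested 11 were below 0 and 1 above (median -8.29), and all 8 islet markers tested were below 0 (median -5.97). Of 12 duct epithelial markers 10 were above 0 and 2 below (median 0.22). None of the endothelial or fibroblast markers was at 0 in any sample. In bulk tissue fewer cells of a type and less RNA per cell cannot be told apart, and the part of these markers in the members' differences was not tested.

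Set against these sums, a ratio chosen after the values were seen, the members differed. Eng was 21.0% to 23.9% of the endothelial sum in untreated wild-type samples and 13.0% to 15.5% in untreated heterozygous samples, so that it was lower also relative to these endothelial markers, which do not include it. Mural and fibroblast markers had lower median log2 fold changes (-1.21 and -1.58) than endothelial ones (-0.75), and Eng was not set against them. Acvrl1 was 4.55% to 8.29% and 4.88% to 5.04% of the same sum, with overlap. Tgfbr1 was 1.44% to 2.54% of the fibroblast sum against 1.93% to 3.26%. Tgfbr2 was 1.62% to 2.98% against 2.58% to 3.73%, so neither was lower relative to this sum. Its most abundant genes are Col1a1, Col1a2 and Col3a1, so the ratio mainly sets a receptor against collagen genes and does not measure fibroblast content. Fstl1, Bmp1, Inhba and Ltbp1 also overlapped on this ratio. Highly abundant 7SL and 7SK RNA took 5.53% to 7.87% of counts in untreated wild-type and 8.19% to 9.59% in untreated heterozygous samples; the part of this in the differences was not tested.

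**Figure D4:**
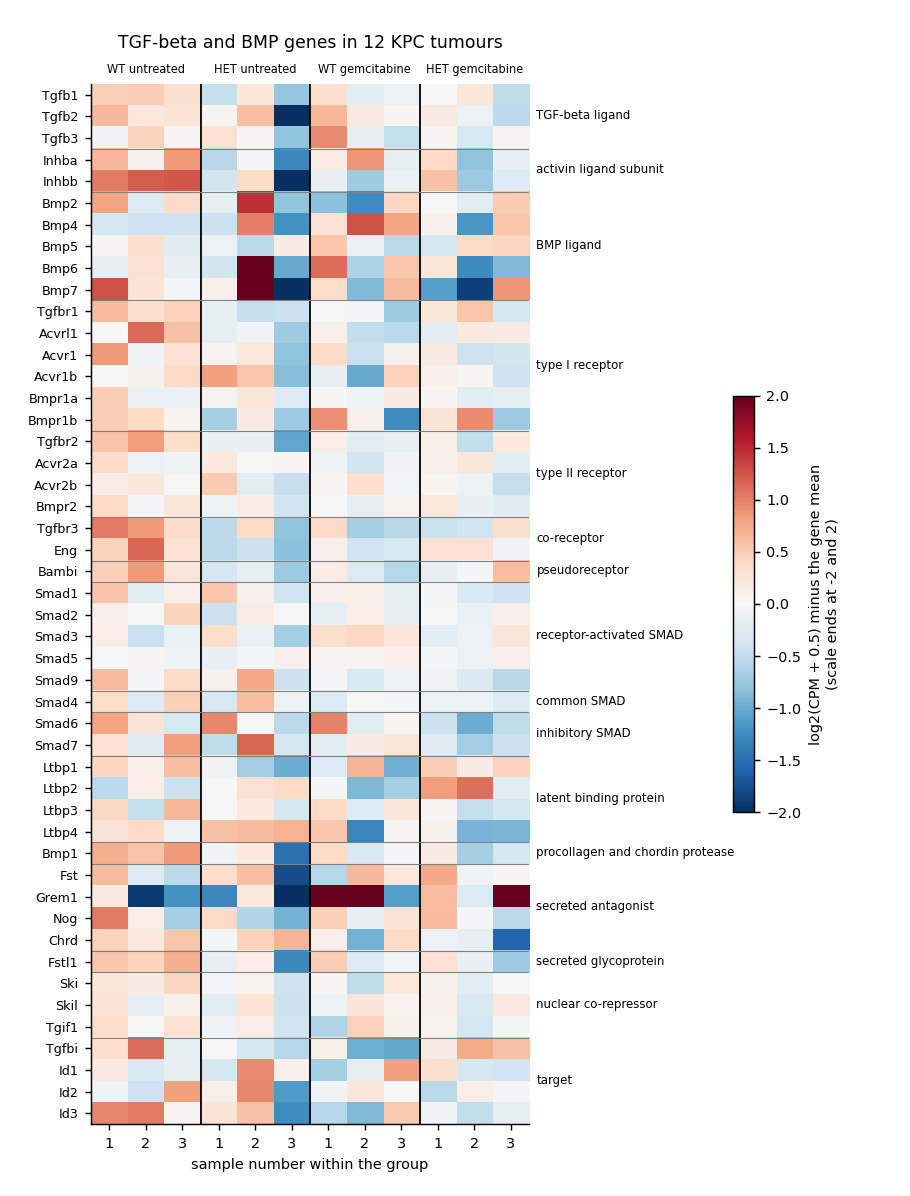
Each row is a member and each column a sample, coloured by log2(CPM + 0.5) minus the mean of that gene over the 12 samples. Untreated heterozygous sample 3 is blue in most rows, untreated heterozygous sample 2 is red for Bmp2, Bmp4, Bmp6 and Bmp7, and the 3 untreated wild-type columns are red for the receptors Tgfbr1, Tgfbr2, Tgfbr3 and Eng.

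One sample stood apart for these genes. Untreated heterozygous sample 3 was the lowest of the 12 for 26 of the 48 members (54.2%), against 14.6% of all genes tested. These included all 3 TGF-beta ligands, both activin subunits, Tgfbr2, Eng, Bmp1 and Fstl1. Its Tgfb2 level was 2.90 CPM where the other samples had 10.3 to 24.2 CPM. The same sample was also the lowest of the 12 for the myofibroblast and mural marker sum (318 CPM) and the endothelial sum (227 CPM). Its fibroblast sum was 4103 CPM, with only treated heterozygous sample 3 lower, at 3860 CPM. The part of these markers in the members' low levels was not tested. Untreated heterozygous sample 2 was the highest for 9 members, namely Bmp2, Bmp6, Bmp7, Smad4, Smad7, Smad9, Skil, Id1 and Id2, which is 18.8% against 9.39% of all genes. These include 3 BMP ligands and 2 of the Id genes, but Bmp4, Id3 and Smad6 were highest in other samples. Id3 was at 31.6 CPM in untreated heterozygous sample 2, below the 43.8 CPM of untreated wild-type sample 2. Whether BMP signalling differed in this tumour was not tested. The 3 untreated wild-type samples were the highest for 8, 7 and 6 members and the lowest for none. Without untreated heterozygous sample 2 the median log2 fold change of the members in untreated mice was -0.65, and without sample 3 it was -0.13.

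Gemcitabine-treated and untreated wild-type tumours were compared next; this comparison shares its untreated wild-type samples with the one above. No member passed the threshold in edgeR, where 0% of genes did, and none in DESeq2, where 0.435% did. Of the members 38 had a log2 fold change below 0, against 48.9% of all genes, and 10 above 0, against 51%, with a median of -0.26 against 0.01. At an unadjusted p under 0.05, 8 members were lower and 2 higher, against 4.55% and 4.05% of genes. The 8 were Eng, Acvrl1, Inhbb, Tgfbi, Tgfbr1, Tgfbr2, Tgfbr3 and Bambi. The count of 8 became 3 without untreated wild-type sample 2, 4 without untreated wild-type sample 1 or treated wild-type sample 2, 5 without treated wild-type sample 3, and 4 with Xist and Y-linked level as a covariate. The groups did not overlap for 8 lower and 2 higher members, against 7.17% and 6.53% of genes.

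In this comparison Eng was at 66.9, 47.2 and 49.7 CPM in treated wild-type samples, all below the untreated ones (log2 fold change -0.88 ± 0.25, edgeR adjusted p = 0.56). Inhbb was at 49.5, 33.2 and 49.9 CPM, less than the lowest untreated wild-type value of 113 CPM, and its log2 fold change was -1.48 ± 0.51 (edgeR adjusted p = 0.56). Tgfbr1, at 181, 175 and 109.6 CPM, also lay wholly below the untreated samples (log2 fold change -0.69 ± 0.25, edgeR adjusted p = 0.56). For Acvrl1, with 20.2, 13.0 and 12.6 CPM, and Tgfbi, with 124, 58.4 and 56.4 CPM, treated sample 1 lay within the untreated range; their log2 fold changes were -0.93 ± 0.32 and -1.06 ± 0.38. Without untreated wild-type sample 2, which had 251 CPM, the Tgfbi log2 fold change was -0.62. Bmp4 and Grem1 were the 2 higher members, with log2 fold changes of 1.29 ± 0.58 and 2.51 ± 1.01. The endothelial marker sum was 253.5 to 342 CPM and the fibroblast sum 5800 to 14650 CPM in treated wild-type samples, and all 10 markers of either list had log2 fold changes below 0; the 10 macrophage markers were below 0 too (median -0.89). In the same samples 7SL and 7SK RNA took 8.28% to 8.61% of counts, against 5.53% to 7.87% in untreated wild-type samples, and mitochondrial RNA 2.44% to 2.90% against 1.43% to 2.33%, neither with overlap. The part of these in the result was not tested. Eng was 18.6% to 19.6% of the endothelial sum, below all 3 untreated wild-type samples.

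In heterozygous tumours Eng, Bambi and Tgfbi lay higher with gemcitabine than without, without overlap, where in wild-type tumours they lay lower. No member passed in edgeR, where 0.00831% of genes did, and none in DESeq2, where 0.661% did. The members were split, with 27 above 0, against 46.8% of genes, 21 below 0, against 53.2%, a median of 0.04, and 2 higher and 1 lower at an unadjusted p under 0.05 (4.42% and 3.48% of genes). The 1 lower member became 6 without untreated heterozygous sample 3, 4 without untreated heterozygous sample 1, 3 without treated heterozygous sample 1 and 0 without treated heterozygous sample 2, and the 2 higher became 1 without untreated heterozygous sample 3. The split above and below 0 turned with the untreated samples: 16 members were above 0 without untreated heterozygous sample 3, and 36 without untreated heterozygous sample 2, whose absence moved the median to 0.30. Eng was at 76.7, 77.5 and 59.5 CPM in treated heterozygous samples, all above the untreated ones, with a log2 fold change of 0.78 ± 0.25 (edgeR adjusted p = 0.59). Ltbp1, at 284, 223 and 275 CPM, also lay wholly above the untreated samples (log2 fold change 0.93 ± 0.37, edgeR adjusted p = 0.60). Ltbp4 went the opposite way, with 151, 74.7 and 74.8 CPM, all below the untreated samples (log2 fold change -1.15 ± 0.41, edgeR adjusted p = 0.59). Tgfbi, at 131, 193 and 174 CPM, was above every untreated heterozygous sample (log2 fold change 0.81 ± 0.38, edgeR adjusted p = 0.63). Groups did not overlap for 4 higher members (Eng, Ltbp1, Tgfbi and Bambi) and 2 lower ones (Ltbp4 and Chrd), against 6.64% and 6.08% of genes. The macrophage marker sum was 1136 to 1851 CPM in treated heterozygous against 598.5 to 851 CPM in untreated heterozygous samples. The myofibroblast and mural sum was 683 to 813.5 CPM against 318 to 505 CPM, also without overlap. All 10 macrophage, all 9 mural, 9 of 10 endothelial and 9 of 10 fibroblast markers were above 0. Of the duct epithelial markers 9 of 12 were below 0. The part of these markers in the members' differences was not tested.

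The test of the difference between the 2 gemcitabine effects uses all 12 samples. No member passed in edgeR, where 0.00831% of genes did, and Eng (adjusted p = 0.0073) and Tgfbi (adjusted p = 0.048) passed in DESeq2, where 2.79% of genes did. At an unadjusted p under 0.05, 8 members had a more positive effect in heterozygous mice and 0 a more negative one, against 7.14% and 5.52% of genes. These 8 were Eng, Tgfbi, Tgfbr1, Bambi, Acvrl1, Tgfbr2, Ltbp1 and Inhbb. With Xist and Y-linked level as a covariate the count was 4. Eng had a difference of effects of 1.66 ± 0.35 on the log2 scale (edgeR adjusted p = 0.25). It was 1.29 with the Xist and Y-linked covariate and between 1.35 and 1.84 when single samples were left out. The difference was 1.87 ± 0.54 for Tgfbi and 1.22 ± 0.36 for Tgfbr1 (edgeR adjusted p = 0.25 for both), 1.58 ± 0.53 for Bambi (adjusted p = 0.28) and 1.31 ± 0.45 for Acvrl1 (adjusted p = 0.29). Among SMADs the difference was -0.05 for Smad5, with a 95% interval of -0.49 to 0.38, and the receptor-activated SMADs lay between -0.39 and 0.34. The inhibitory Smad6 and Smad7 were at -1.04 (-2.52 to 0.45) and -0.48 (-1.78 to 0.82). Fibroblast, mural, endothelial and macrophage markers had median differences of 1.20, 1.45, 1.09 and 1.79 in the same direction, and their part in the members' differences was not tested.

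**Figure D5:**
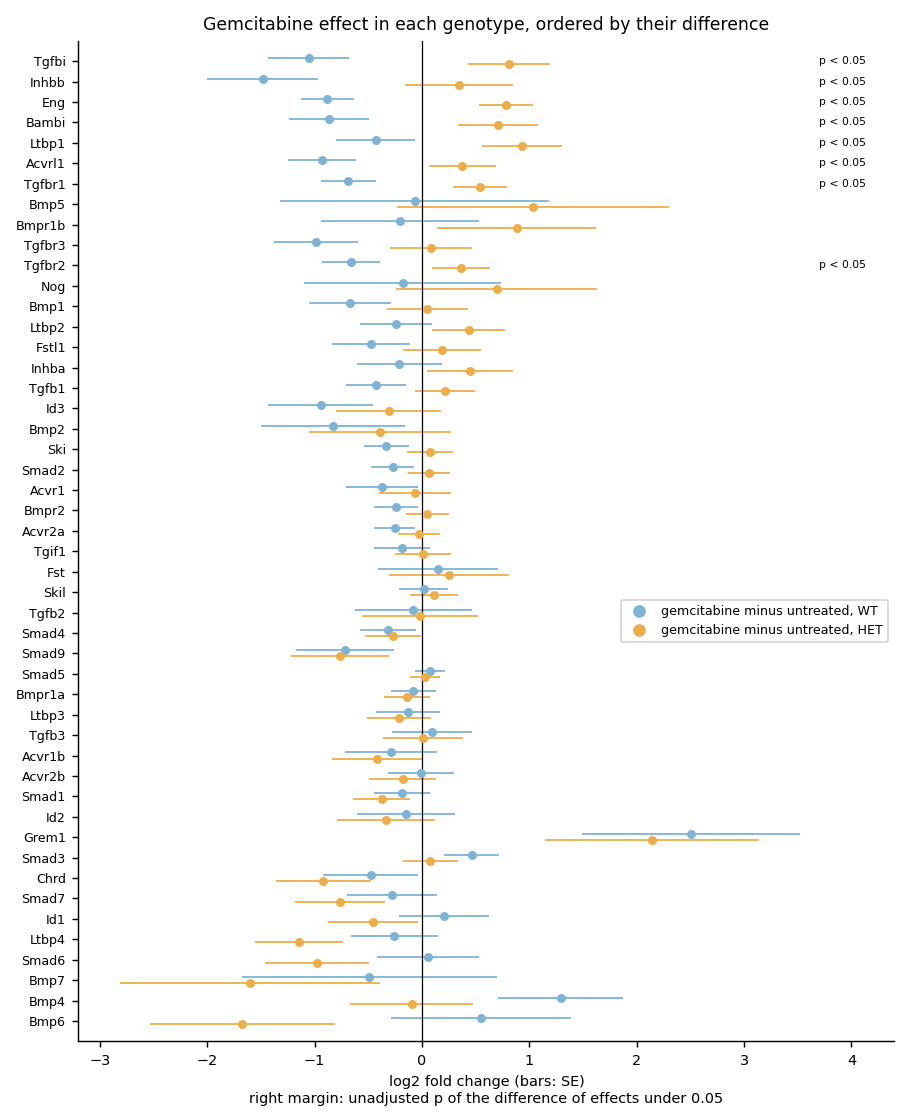
Log2 fold change with gemcitabine (point, bar: SE) in wild-type and heterozygous mice for each member, ordered by the difference between them; the right margin marks an unadjusted p of the difference under 0.05. For the upper members such as Tgfbi, Inhbb and Eng the wild-type points lie below 0 and the heterozygous points above it, while Grem1 is above 2 in both.

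Among gemcitabine-treated mice the TGF-beta receptors overlapped between the labelled genotypes. Tgfbr2 was at 239, 188 and 196 CPM in wild-type and 236, 154 and 250.1 CPM in heterozygous samples, a log2 fold change of 0.04 with a 95% interval of -0.55 to 0.63. Tgfbr1, at 209, 263 and 140.4 CPM in heterozygous samples, had 0.40, and Eng had 0.38, which became -0.049 with the Xist and Y-linked covariate. No member passed in edgeR, where 0.00416% of genes did, or in DESeq2, where 0.985% did. Ltbp2 and Tgfbi were higher and Smad6 lower at an unadjusted p under 0.05, against 4.66% and 2.89% of genes, and 30 members were below 0 and 18 above it, against 53.1% and 46.9% of genes. With the Xist and Y-linked covariate no member was left at that unadjusted p. Tgfbi was higher without overlap (log2 fold change 1.06 ± 0.38, edgeR adjusted p = 0.57). As a share of the macrophage marker sum it overlapped, at 9.93% to 11.2% in treated wild-type and 9.38% to 17.0% in treated heterozygous samples. Smad6, an inhibitor of BMP receptors, was at 14.1, 5.76 and 6.95 CPM in wild-type and 4.97, 3.17 and 4.63 CPM in heterozygous samples (log2 fold change -1.07 ± 0.48, edgeR adjusted p = 0.66). Smad7 did not overlap either, and with Tgfbi these were 1 higher and 2 lower members apart, against 7.12% and 6.59% of genes. All 10 macrophage markers (median log2 fold change 0.92), all 9 T cell markers (3.49) and all 8 B and plasma cell markers (3.78) were above 0 between the treated genotypes, and all 12 acinar markers tested were below 0 (-5.34). The macrophage sum was 560 to 1111 CPM in treated wild-type and 1136 to 1851 CPM in treated heterozygous samples. The part of these in the members' differences was not tested. Since all treated wild-type samples had the higher Xist and all treated heterozygous samples the higher Y-linked genes, none of these values separates genotype from sex.

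Ltbp2 had the smallest p of the members for genotype averaged over treatments, and with Bmp2 and Acvr1b it was 1 of 3 members above 0 in both treatments. Its protein binds fibrillin-rich microfibrils and, unlike its relatives, does not bind latent TGF-beta. It was at 206, 328 and 223 CPM in untreated wild-type, 301, 366 and 396 CPM in untreated heterozygous, 292, 159.6 and 189 CPM in treated wild-type and 537, 644 and 259 CPM in treated heterozygous samples. The ranges overlapped by single samples, wild-type sample 2 among the untreated and heterozygous sample 3 among the treated. The log2 fold change was 0.49 ± 0.34 in untreated mice (edgeR adjusted p = 0.60), 1.17 ± 0.34 in treated mice (adjusted p = 0.55) and 0.83 ± 0.24 for the average over treatments (adjusted p = 0.41). With the Xist and Y-linked covariate the average was 0.51. As a share of the fibroblast marker sum Ltbp2 was 1.31% to 3.26% in the 6 wild-type samples and 5.38% to 9.89% in the 6 heterozygous samples, with no overlap. That ratio was chosen after its values were seen, and the fibroblast sum, whose most abundant genes are Col1a1, Col1a2 and Col3a1, was itself lower in untreated heterozygous samples. No other member set against the fibroblast sum (Tgfbr1, Tgfbr2, Inhba, Inhbb, Fstl1, Bmp1, Ltbp1 and Grem1) separated the genotypes in this way.

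Averaged over treatments, 39 members were below 0 in heterozygous mice, against 48.7% of genes, and 9 above 0, against 51.3%, with a median of -0.21 against 0.01. No member passed in edgeR, where 0.0332% of genes did (0.0125% lower, 0.0208% higher), or in DESeq2, where 1.21% did; 1 member was higher and 4 lower at an unadjusted p under 0.05 (3.7% and 3.96% of genes). Inhba had the smallest p among the lower ones. It was at 68.2, 113.5 and 54.1 CPM in treated wild-type and 80.9, 34.9 and 54.8 CPM in treated heterozygous samples, which overlapped, and its average log2 fold change was -0.80 ± 0.28 (edgeR adjusted p = 0.53). Eng had an average of -0.45 ± 0.17 (adjusted p = 0.59), made of opposite signs in untreated and treated mice. Tgfbr2 and Bmp1 were the other 2. The count of 4 was 9 without untreated heterozygous sample 2 and 1 with the Xist and Y-linked covariate. It was 2 without untreated heterozygous sample 3, treated wild-type sample 1 or treated heterozygous sample 3. In this average all 10 fibroblast markers (median -0.87) and all 9 myofibroblast and mural markers (-0.56) were below 0. So were 8 of 10 endothelial (-0.25) and all 12 acinar markers tested (-7.07). Of the 10 macrophage markers 7 were above 0, as were all 9 T cell and all 8 B and plasma cell markers. The part of these in the members' differences was not tested.

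Gemcitabine averaged over genotypes gave 0 members past the threshold in edgeR (0.00831% of genes) and in DESeq2 (0.118%), and 1 higher and 3 lower at an unadjusted p under 0.05 (2.25% and 2.2% of genes). Grem1, a secreted BMP antagonist of fibroblasts, was at 17.8, 3.78 and 6.45 CPM in untreated wild-type and 6.11, 18.1 and 3.28 CPM in untreated heterozygous samples. With gemcitabine it was at 81.3, 71.2 and 6.98 CPM in wild-type and 24.2, 12.9 and 84.1 CPM in heterozygous samples. High values thus came from 3 of the 6 treated samples, and the others lay within or just above the untreated range. The log2 fold change was 2.32 ± 0.71 (edgeR adjusted p = 0.94), and in heterozygous mice alone it was 2.14, or 1.02 without treated heterozygous sample 3. Ltbp4 had an average of -0.70 ± 0.29 and Smad9, a scarce BMP-activated SMAD at 0.58 to 2.18 CPM, -0.74 ± 0.32 (edgeR adjusted p = 0.94 for both). Chrd was the third lower member. The 3 lower members became 0 without untreated wild-type sample 1, untreated heterozygous sample 2 or treated heterozygous sample 3, and 6 without untreated heterozygous sample 3.

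Other genes of the pathway, 79 ligands, activators, receptors, regulators and targets of which 64 were tested, gave 0 past the threshold in edgeR in any of the 7 comparisons. In untreated mice 46 of the 64 were below 0 in heterozygous samples, against 46.3% of all genes. At an unadjusted p under 0.05, 12 were lower and 0 higher, against 6.65% and 5.51%. Col1a1 and Dcn of this list are also among the fibroblast markers, all 10 of which were below 0 here (median -1.58). The part of the fibroblast markers in these counts was not tested. Of the 64, Emilin1 and Itgav had the smallest p. Emilin1 is a matrix protein that restrains processing of the TGF-beta precursor. Itgav is the integrin chain of receptors that release active TGF-beta. Emilin1 was at 80.5, 127 and 132 CPM against 50.4, 65.7 and 44.2 CPM (log2 fold change -1.08 ± 0.29, edgeR adjusted p = 0.22). Itgav was at 434, 356 and 443 CPM against 247, 292 and 151 CPM (log2 fold change -0.84 ± 0.24, edgeR adjusted p = 0.24). Both lacked overlap, both had the smallest p also for the difference of gemcitabine effects (1.35 ± 0.40 and 1.04 ± 0.33), and both passed in DESeq2 in untreated mice, where 2.73% of genes did. With gemcitabine in heterozygous mice Furin, the protease that cleaves the TGF-beta precursor, was lower without overlap, from 309, 294 and 216 CPM to 208, 176 and 128 CPM (log2 fold change -0.68 ± 0.21, edgeR adjusted p = 0.59). Ppm1a, a phosphatase of receptor-activated SMADs, had -0.61 ± 0.21 there. In treated mice Gdf15, a stress-induced ligand of this superfamily, and Furin were lower with the heterozygous label, by log2 fold changes of -3.13 ± 0.94 and -0.67 ± 0.21 (edgeR adjusted p = 0.55 for both), and Gdf15 passed in DESeq2, where 0.985% of genes did. For the genotype average Hes1 and Hey1, transcription factors that TGF-beta and BMP can induce, had -0.60 ± 0.19 and -0.94 ± 0.29 (edgeR adjusted p = 0.44 for both). In wild-type mice with gemcitabine Gdf10 and Gdf6 had the smallest p, with log2 fold changes of -3.58 ± 1.33 and -1.60 ± 0.61, and Gdf6 and Bhlhe40 did so for the gemcitabine average.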

How the data were processed

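Total RNA of 12 snap-frozen tumours had been sequenced as stranded, ribosomal-RNA-depleted libraries, per the labels' protocols. The deposited values are expected counts per Ensembl gene, made by the authors with RSEM on GRCm38, per the submitters' processing notes; all were already whole numbers. For the RSEM version, aligner, annotation release and strand setting: not given in the sources used here. Rows without a gene symbol held 0.0452% of counts. Members and values were read from the 12 library files; a summary table with the same values in its 12 columns was checked to be equal and not used further.

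Symbols and exon lengths came from GENCODE M21. In R 4.3.3, edgeR 4.0.16 (filterByExpr, TMM, robust quasi-likelihood fit, 1 mean per group over all 12 libraries) tested 24065 genes in 7 comparisons, with p adjusted over all genes; the biological coefficient of variation was 46.4%. Totals limit precision little beside the spread between 3 samples a group. SE is the log2 fold change divided by the root of F, and intervals are 95%. CPM are TMM-scaled. DESeq2 1.42.0, other scalings and filters, covariates (acinar markers, Xist and Y-linked genes), a replicate block and each library left out were alternatives. With blastn 2.17.0, 0 members had a copy at 95% identity over 50% of the transcript. The fit was tested on simulated data.

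Groups came from the sample titles. The members, gene lists and tests were chosen with earlier results of these data known. Members given in full are those with the smallest p, up to 5 in each comparison and 3 for each average, and the most abundant of each role; for other pathway genes, the 2 with the smallest p in each comparison. Promoter windows and motif letters are from RefSeq (GRCm38.p6).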

Additional observations from a re-analysis of the deposited data

How the results depend on the processing

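The count of members past the adjusted threshold was 0 in all 7 comparisons and stayed 0 with every alternative except DESeq2, which gave 2 in untreated mice (Eng and Tgfbr2) and 2 for the difference of gemcitabine effects (Eng and Tgfbi). Over all genes DESeq2 passed 672, 235, 97, 168, 600, 316 and 29 where edgeR passed 4, 1, 0, 2, 2, 8 and 2 (genotype untreated and treated, gemcitabine in wild-type and heterozygous mice, their difference, and the genotype and gemcitabine averages); the cause was not tested. With single libraries left out it ranged from 0 to 0 in each comparison, which says nothing of stability, since none had passed. The log2 fold change of Eng between treated genotypes turned to -0.049 with the Xist and Y-linked covariate; the cause was not tested. Leaving out untreated heterozygous sample 2 moved the members' median to -0.65 in untreated mice, 0.30 with gemcitabine in heterozygous mice and 0.51 for the difference of effects. Replicate numbers did not pair the samples: deviations of same-numbered samples correlated between -0.27 and 0.15, those of other numbers between -0.22 and 0.23. The replicate block gave 0 members past the threshold in each comparison. Across the genes named, 707 alternative values kept direction and side of the threshold, 7 passed it, all in DESeq2, and 1 reversed. What passed depended on the test, as the DESeq2 and edgeR counts above show. With 3 samples a group the spread between samples limits precision more than depth does. Members under 1 CPM per kilobase are also limited by counts.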

Other observations

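Members differed widely in how much they varied between samples of a group. The 4 steadiest were receptors and SMADs, with pooled within-group SDs on the log2 scale of 0.094 for Smad5, 0.21 for Acvr2a, 0.22 for Bmpr2 and 0.22 for Smad2. The 5 most variable were ligands and antagonists, with 1.46 for Bmp7, 1.42 for Grem1, 1.06 for Bmp6, 0.81 for Fst and 0.80 for Bmp2. Neither role was uniform: Bmpr1b was at 0.74, Acvr1b at 0.61 and Smad6 at 0.59, while the ligand Tgfb1 was at 0.35. Bmp5 was at 0.42, but it lay at only 0 to 0.57 CPM. The SDs are of log2(CPM + 0.5), and the added 0.5 flattens the spread of such scarce genes, also among all genes tested. The median over the 48 members was 0.50, against 0.35 over all genes tested.

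A few members lie close together in the genome. Acvrl1 and Acvr1b are 28.7 kb apart on chromosome 15, Tgfbi and Smad5 63.5 kb apart on chromosome 13, and Smad3 and Smad6 195 kb apart on chromosome 9. In untreated mice the log2 fold change was -0.96 for Acvrl1 against 0.17 for Acvr1b, -0.81 for Tgfbi against -0.02 for Smad5, and 0.04 for Smad3 against -0.03 for Smad6.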
